A study of Mus musculus with 6 samples.

Results

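The 10 integrin genes of macrophages described here are 6 that encode alpha subunits (Itgal, Itgam, Itga4, Itga5, Itga6 and Itgav) and 4 that encode beta subunits (Itgb1, Itgb2, Itgb5 and Itgb7). The genes were chosen by name, as the rows of the deposited normalized table whose symbol equals a listed member, and all 10 members were found among 16111 genes. Macrophages from mouse fetal liver were cultured in 6 samples of the strain labelled C57BL/6 RCC, 3 from wild-type (WT) fetuses and 3 from AhRR-/- fetuses, which lack the repressor of the aryl hydrocarbon receptor (AhR) encoded by Ahrr. All came from E13.5 fetuses and spent 5 weeks in culture with 2% GM-CSF, a macrophage growth factor, and in both groups the non-adherent cells alone were harvested for RNA, so cells held to the dish are outside these measurements. The labels number a mouse for each library, and they do not describe the targeted allele further. The question for these genes is which integrin transcripts differ between the genotypes.

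Integrins are receptors of the cell surface made of 1 alpha and 1 beta subunit, and neither subunit reaches the surface alone in normal amounts. The alpha subunit largely sets which ligand is bound, and the tail of the beta subunit binds talin and kindlin, which link the receptor to actin and switch it to its high-affinity form. In macrophages the beta2 integrins serve adhesion to other cells and uptake of complement-coated particles, and the beta1, beta5 and beta7 integrins serve contact with matrix, vessel wall and dying cells.

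Library totals ranged from 3556106 counts in Ahrr-deficient replicate 1 to 41668336 in Ahrr-deficient replicate 2. A ribosomal RNA gene, CT010467.1, held 5.28% of the counts of WT replicate 2 and at most 0.0679% of the others. Ahrr itself had 4.60, 4.29 and 5.32 CPM (counts scaled to the library total) in WT replicates 1, 2 and 3 and 2.25, 2.57 and 1.21 CPM in Ahrr-deficient libraries 1, 2 and 3. It was lower in the libraries labelled Ahrr-deficient (log2 fold change -1.21, edgeR adjusted p of 0.0151), and reads assigned to it remained there. The deleted part of the gene is not given in the labels, so its reads check the genotype in part only. That call was lost without WT replicate 1 (edgeR adjusted p of 0.0631) or without WT replicate 3 (0.0502). All 12 listed macrophage markers were present, with a summed level of 23050.4 to 28561 CPM in WT and 16501.5 to 23536 CPM in Ahrr-deficient libraries. Most of that sum was Lyz2, with 17419 to 22740 CPM in WT and 12440 to 19165 CPM in Ahrr-deficient libraries. Lyz2 overlapped between the groups and did not pass (edgeR adjusted p of 0.0926). Csf1r and Cd14 were among the markers that fell, Csf1r in 9 of 16 alternatives. In bulk RNA, fewer cells of a type and less RNA per cell cannot be told apart.

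Of the 10 integrin genes, all of which had enough counts to be tested, 2 rose in Ahrr-deficient cells (Itgal and Itga5), 1 fell (Itgb5), and 7 did not pass an edgeR adjusted p of 0.05. The share called, 30%, stands beside 19.6% of all 11408 tested genes, of which 9.62% rose and 9.95% fell. An unadjusted p under 0.05 was found for 5 members, beside 35.8% of tested genes. The libraries of the genotypes did not overlap in CPM for 6 members (Itgal, Itga5, Itga6, Itgb1, Itgb2 and Itgb5), beside 36.6% of tested genes. Fold changes were modest. The largest in size among the 10 was the 1.59-fold fall of Itgb5, and the median log2 fold change was 0.20, beside 0.01 for all tested genes. The number of members called varied from 1 to 6 when 1 library was left out, with 1 (Itgb5) without WT replicate 1, WT replicate 2, Ahrr-deficient replicate 2 or Ahrr-deficient replicate 3 and 6 without Ahrr-deficient replicate 1, the shallowest. With the replicate number as a block it was 1. Calls over all tested genes moved as well. They were 694 of 11427 without WT replicate 1, 965 of 11839 without WT replicate 2 and 1107 of 11836 without WT replicate 3. Without Ahrr-deficient replicates 1, 2 and 3 they were 3857 of 11837, 948 of 11412 and 1175 of 11407, and with the block 1390 of 11408.

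**Figure D1:**
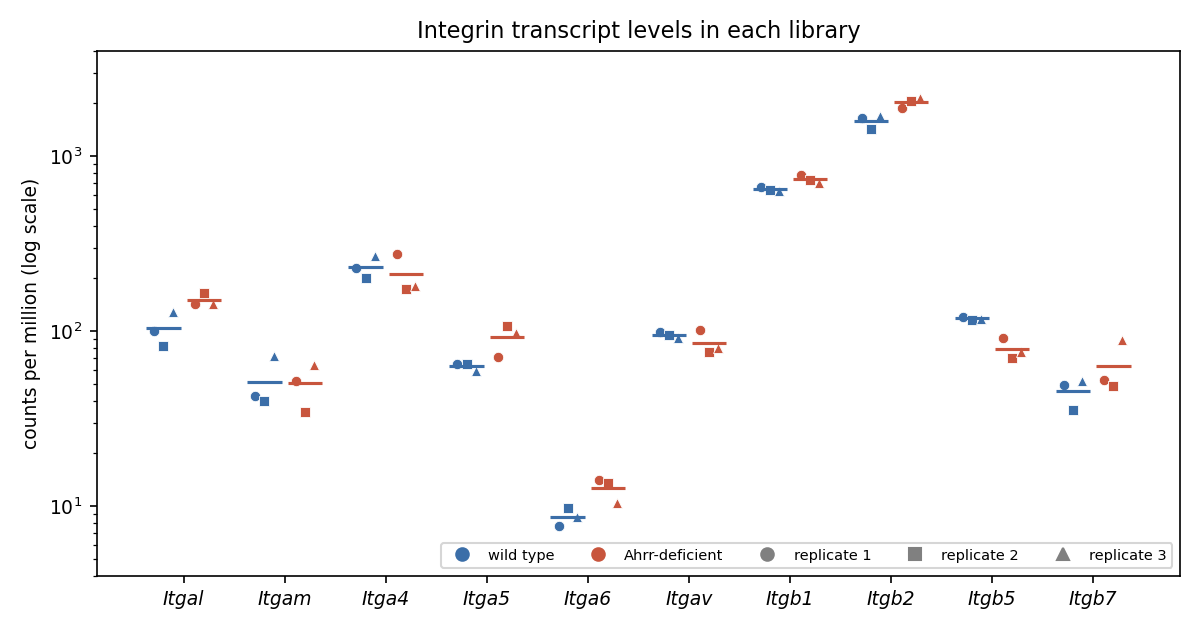
Level of each integrin gene in each of the 6 libraries, in CPM on a log scale. Points are libraries (symbols mark the replicate number), horizontal lines are group means of 3 libraries. The Itgb5 points of the Ahrr-deficient libraries all lie below those of the wild-type libraries, those of Itgal and Itga5 all lie above, and those of Itgam, Itga4, Itgav and Itgb7 overlap.

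Per length of merged exons, Itgb2 had the highest level of the integrin genes, with 520.3 ± 44.8 CPM per kb in WT and 668 ± 44.5 CPM per kb in Ahrr-deficient cells (SD, n = 3). Itgb1 followed, with 158 ± 4.3 and 181 ± 10.6 CPM per kb (SD, n = 3). In WT the third was Itgb5 with 33.2 CPM per kb, above Itga4 (16.6), Itgb7 (16.5), Itgal (15.8) and Itga5 (12.8) in every library. The WT ranges of Itga4, Itgb7 and Itgal overlapped from one to the next, as did those of Itgal and Itga5, so their order is not resolved. In Ahrr-deficient cells Itgb7 (22.9), Itgal (22.9), Itgb5 (22.2), Itga5 (18.7) and Itga4 (15.1) followed Itgax with ranges that overlapped from each to the next. Itgam (10.2 in WT and 9.99 in Ahrr-deficient cells) and Itgav (8.87 and 7.996) had lower means, with ranges that overlapped those of the next gene above, and Itga6 was the lowest of the 10 with 0.963 and 1.41 CPM per kb.

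The beta2 integrins are found on white blood cells alone. Itgb2 (ENSMUSG00000000290.13, chromosome 10, 77530252 to 77565708, plus strand) encodes the shared beta2 chain, CD18. It had 1644, 1432 and 1687 CPM in WT replicates 1, 2 and 3 and 1892, 2064 and 2160.4 CPM in the Ahrr-deficient replicates. Every Ahrr-deficient library was above every WT library. The log2 fold change was 0.29 (SE 0.11, 95% interval 0.05 to 0.53), with an edgeR adjusted p of 0.0886, which missed the threshold. It passed with DESeq2 (adjusted p of 0.0172), with limma-voom (0.0383), with GC offsets (0.0329) and without Ahrr-deficient replicate 1 (0.0353).

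Itgal (ENSMUSG00000030830.18, chromosome 7, 127296260 to 127335138, plus strand) encodes the alphaL chain, which with beta2 forms LFA-1, a receptor for the ICAM family on other cells. It had 99.9, 82.7 and 129 CPM in WT and 144, 165 and 143 CPM in Ahrr-deficient libraries 1, 2 and 3. The groups did not overlap, and the highest WT library, replicate 3, lay closest to the Ahrr-deficient ones. Itgal rose from 104 ± 23.2 to 150.4 ± 12.4 CPM (SD, n = 3), which is 0.47 on the log2 scale (SE 0.12, edgeR adjusted p of 0.0268). The call was lost without WT replicate 1 (0.124), WT replicate 2 (0.101), Ahrr-deficient replicate 2 (0.0979) or Ahrr-deficient replicate 3 (0.0603), and with the replicate block (0.0506), while the fold change stayed between 0.38 and 0.61 on the log2 scale.

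Itgam (ENSMUSG00000030786.18, chromosome 7, 128062640 to 128118491, plus strand) encodes the alphaM chain CD11b, which with beta2 forms Mac-1, also called complement receptor 3, and binds the complement fragment iC3b and fibrinogen. It had 42.6, 39.7 and 71.7 CPM in WT and 52.0, 34.6 and 63.9 CPM in Ahrr-deficient libraries 1, 2 and 3. The groups overlapped, replicate 3 was the highest in both, and the log2 fold change was -0.11 (SE 0.26, 95% interval -0.69 to 0.47, edgeR adjusted p of 0.793). The sign turned without WT replicate 3 (0.15) and without Ahrr-deficient replicate 2 (0.14). In the GENCODE annotation 3450 of the 5024 merged exon bases of Itgam are shared on the same strand with Gm49368, so the level of Itgam is uncertain. Gm49368 has no row of its own among the identified genes, and the handling of shared reads is not given in the sources used here.

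The third alpha partner of beta2, Itgax (ENSMUSG00000030789.9, chromosome 7, 128129547 to 128150657, plus strand), is not among the 10 genes but lies next to Itgam and encodes the alphaX chain CD11c, typical of alveolar macrophages and dendritic cells. It had 57.7, 49.4 and 46.9 CPM in WT and 143, 218 and 166 CPM in Ahrr-deficient libraries 1, 2 and 3. Itgax rose 3.25-fold (log2 fold change 1.70, SE 0.15, edgeR adjusted p of 6.96e-04), and it passed in all 16 alternatives. Described per length, Itgax made up 29.8% ± 6.4 of the summed alpha transcripts of Itgal, Itgam and Itgax in WT and 52.2% ± 5.7 in Ahrr-deficient cells (SD, n = 3). The share of Itgal was 42.8% ± 2.0 and 33.1% ± 2.0, and that of Itgam 27.4% ± 4.7 and 14.7% ± 5.1 (SD, n = 3). As an alternative, all counts of Itgam were divided by its 1574 unshared exon bases, as if no read from the shared bases had been counted. Whether that holds is not known. The share of Itgam was then 54.4% in WT and 34.9% in Ahrr-deficient cells, and that of Itgax 18.9% and 39.95%. In both versions each Ahrr-deficient library had a larger Itgax share than each WT library. The share of Itgal did not keep its separation: with the unshared bases it was 26.8% in WT and 25.1% in Ahrr-deficient cells, with overlapping ranges.

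**Figure D2:**
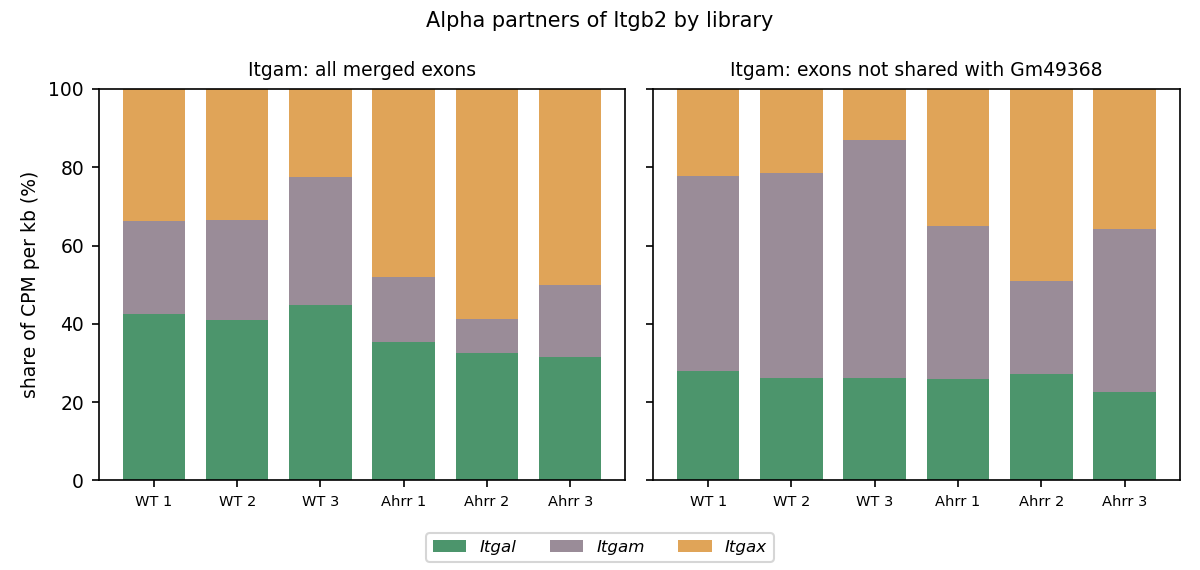
Share of each alpha partner of Itgb2 in the summed CPM per kb of Itgal, Itgam and Itgax, in percent, for the 6 libraries. All Itgam counts were divided by the length of all its merged exons on the left. On the right the same counts were divided by the length of the exons not shared with Gm49368. Itgax held 22.4% to 33.7% in wild type and 47.9% to 58.7% in Ahrr-deficient libraries on the left.

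Sequence before the start sites is shown for this neighbouring pair, of which Itgax rose and Itgam did not pass the test. The bases are the 250 upstream of the RefSeq start (GRCm38.p6), plus strand, chr7:128062390-128062639 for Itgam and chr7:128129300-128129549 for Itgax. Capitals mark matches on either strand to GCGTG, the core letters of the AhR response element, or to GAGGAA, the core letters of a PU.1 site. These motifs do not overlap in the sequences shown.
Itgam: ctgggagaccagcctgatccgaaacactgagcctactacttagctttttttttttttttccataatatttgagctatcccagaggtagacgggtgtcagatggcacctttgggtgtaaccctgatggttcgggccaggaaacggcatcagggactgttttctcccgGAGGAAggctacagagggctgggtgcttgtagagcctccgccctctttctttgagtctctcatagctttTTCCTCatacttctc
Itgax: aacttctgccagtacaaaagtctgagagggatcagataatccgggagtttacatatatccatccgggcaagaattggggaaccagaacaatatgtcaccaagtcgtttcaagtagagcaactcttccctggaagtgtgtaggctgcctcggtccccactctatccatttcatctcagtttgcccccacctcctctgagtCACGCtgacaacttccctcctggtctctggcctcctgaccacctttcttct
The Itgam window held GAGGAA at 2 places, 84 bases before the start and, on the minus strand, 15 bases before it, and no GCGTG. The Itgax window held GCGTG at 51 bases before the start, on the minus strand, and no GAGGAA. Among all 32851 windows of this length in the RefSeq table, 28.2% held GCGTG and 23.3% held GAGGAA. A match is a description of letters, not a site.

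Of the fibronectin-binding chains, Itga5 passed the test. Itga5 (ENSMUSG00000000555.7, chromosome 15, 103344286 to 103366763, minus strand) encodes the alpha5 chain, which with beta1 forms the main fibronectin receptor. It had 64.5, 64.8 and 59.4 CPM in WT and 71.4, 107 and 97.2 CPM in Ahrr-deficient libraries 1, 2 and 3. The WT libraries were close together, and Ahrr-deficient replicate 1 lay nearest to them. Itga5 rose from 62.9 ± 3.0 to 92.0 ± 18.5 CPM (SD, n = 3), which is 0.49 on the log2 scale (SE 0.14, edgeR adjusted p of 0.0384). The call was lost without WT replicate 1 (0.138), WT replicate 2 (0.0696), WT replicate 3 (0.138), Ahrr-deficient replicate 2 (0.139) or Ahrr-deficient replicate 3 (0.124), after thinning to the smallest total (0.0834) and with the replicate block (0.0505).

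Itga4 (ENSMUSG00000027009.18, chromosome 2, 79255426 to 79333123, plus strand) encodes the alpha4 chain, which pairs with beta1 to form VLA-4, a receptor for VCAM-1 and fibronectin, or with beta7 to bind the gut vessel protein MAdCAM-1. It had 228, 201 and 268 CPM in WT and 277, 174 and 181 CPM in Ahrr-deficient libraries 1, 2 and 3. Ahrr-deficient replicate 1 was above all WT libraries and the other two Ahrr-deficient libraries were below them. The log2 fold change was -0.22 (SE 0.18, 95% interval -0.62 to 0.18, edgeR adjusted p of 0.409), and without Ahrr-deficient replicate 1 it was -0.48 (edgeR adjusted p of 0.00434). Exons of Cerkl overlap 1124 exon bases of Itga4 on the opposite strand, which the library kit does not tell apart, and Cerkl had at most 33 counts in any library.

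Itga6 (ENSMUSG00000027111.15, chromosome 2, 71745616 to 71858416, plus strand) encodes the laminin-binding alpha6 chain. It had 7.70, 9.68 and 8.69 CPM in WT and 14.1, 13.6 and 10.4 CPM in Ahrr-deficient libraries 1, 2 and 3. The groups did not overlap, but counts were few, with 50 in Ahrr-deficient replicate 1. The log2 fold change of 0.49 (SE 0.17, 95% interval 0.10 to 0.89) was as large as that of Itga5 and missed the threshold (edgeR adjusted p of 0.0775). It passed with limma-voom (adjusted p of 0.0382).

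Itgb1 (ENSMUSG00000025809.15, chromosome 8, 128685654 to 128733200, plus strand) encodes the beta1 chain shared by alpha4, alpha5, alpha6 and alphaV. It had 666, 640.0 and 633 CPM in WT and 785, 730.1 and 699 CPM in Ahrr-deficient libraries 1, 2 and 3. The groups did not overlap in CPM, yet the log2 fold change after TMM scaling was 0.12 (SE 0.11, 95% interval -0.13 to 0.36, edgeR adjusted p of 0.479).

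Itgb7 (ENSMUSG00000001281.9, chromosome 15, 102215995 to 102231944, minus strand) encodes the beta7 chain, the other partner of alpha4. It had 49.5, 35.6 and 52.1 CPM in WT and 52.9, 48.5 and 89.3 CPM in Ahrr-deficient libraries 1, 2 and 3. A single library, Ahrr-deficient replicate 3, stood above all others. The log2 fold change was 0.40 (SE 0.22, 95% interval -0.10 to 0.90, edgeR adjusted p of 0.225), and without that library it was 0.06 (edgeR adjusted p of 0.806). With GC offsets and the replicate block together Itgb7 passed (edgeR adjusted p of 0.0322).

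Itgb5 (ENSMUSG00000022817.14, chromosome 16, 33829665 to 33949338, plus strand) encodes the beta5 chain, which with alphaV forms a vitronectin receptor that also serves the uptake of dying cells. It had 121, 116 and 118 CPM in WT and 90.8, 69.8 and 76.3 CPM in Ahrr-deficient libraries 1, 2 and 3. The WT libraries lay within a narrow range and every Ahrr-deficient library was below it. Itgb5 fell from 118 ± 2.7 to 79.0 ± 10.8 CPM (SD, n = 3), which is -0.67 on the log2 scale (SE 0.11, 95% interval -0.92 to -0.42, edgeR adjusted p of 0.00595). It passed in all 16 alternatives, the 6 fits without 1 library included, with an adjusted p of at most 0.0423.

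Itgav (ENSMUSG00000027087.11, chromosome 2, 83724397 to 83806916, plus strand) encodes the alphaV chain, which binds RGD motifs in vitronectin and fibronectin and the latent form of TGF-beta. It had 99.4, 94.9 and 91.6 CPM in WT and 101, 76.2 and 80.3 CPM in Ahrr-deficient libraries 1, 2 and 3. Ahrr-deficient replicate 1 was the highest of all 6 libraries, and the other two Ahrr-deficient libraries were the lowest. The log2 fold change was -0.24 (SE 0.12, 95% interval -0.52 to 0.03, edgeR adjusted p of 0.188). It passed without Ahrr-deficient replicate 1 (-0.38, edgeR adjusted p of 0.00845) and with GC offsets (-0.35, edgeR adjusted p of 0.0464). Exons of Gm13684 overlap 634 exon bases of Itgav on the opposite strand, and Gm13684 had at most 5 counts in any library.

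**Figure D3:**
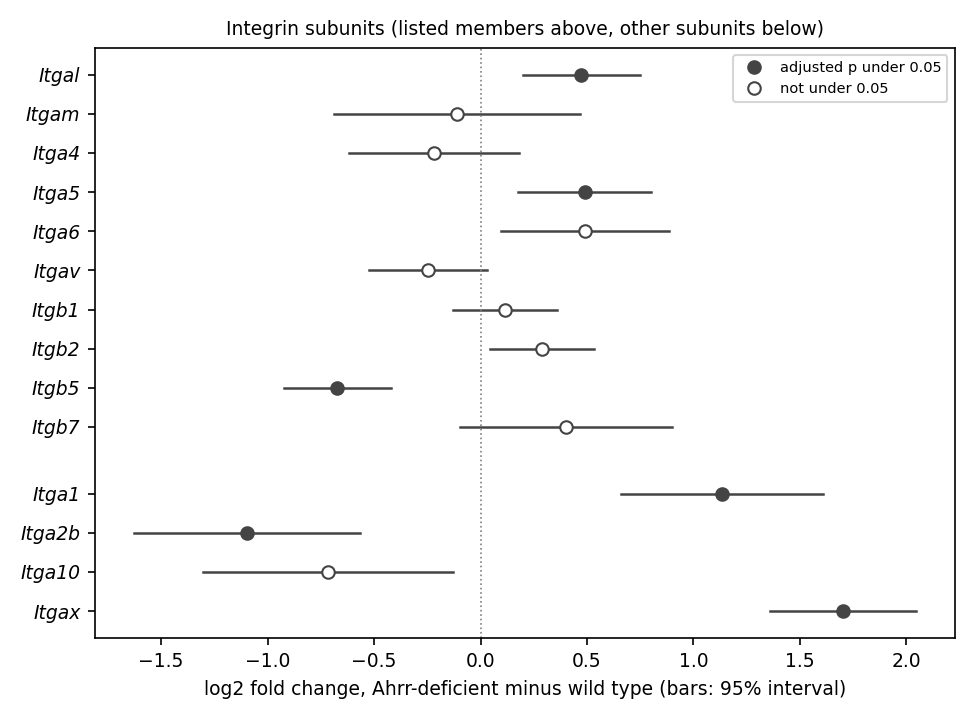
Log2 fold change, Ahrr-deficient minus wild type, with its 95% interval for the 10 integrin genes (above) and the 4 other integrin subunit genes that could be tested (below). Filled points passed an edgeR adjusted p of 0.05. Itgb5 is the only filled point below 0 among the 10, and Itgax has the largest value at 1.70.

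Sequence before the start is shown for Itgb5 and Itga5, the members with the fall and one of the rises for which the RefSeq table had an entry. It had entries for 7 of the 10 genes, and Itgal, Itga6 and Itgb2 were not among them. The windows are chr16:33829415-33829664, plus strand, for Itgb5 and chr15:103366792-103367041, minus strand, for Itga5 (GRCm38.p6), written in the direction of the gene with the same capitals as above.
Itgb5: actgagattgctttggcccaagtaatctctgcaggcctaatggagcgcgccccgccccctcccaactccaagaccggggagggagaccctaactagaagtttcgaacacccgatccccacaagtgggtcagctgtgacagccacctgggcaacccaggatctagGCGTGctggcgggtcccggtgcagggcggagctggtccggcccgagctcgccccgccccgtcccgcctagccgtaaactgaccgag
Itga5: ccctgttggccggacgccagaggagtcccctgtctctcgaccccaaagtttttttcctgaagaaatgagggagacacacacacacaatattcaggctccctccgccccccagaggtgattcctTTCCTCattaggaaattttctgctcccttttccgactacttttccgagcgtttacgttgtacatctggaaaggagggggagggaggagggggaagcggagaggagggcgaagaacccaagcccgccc
The Itgb5 window held GCGTG at 86 bases before the start, and it was the only one of the 7 to hold those letters. Among all 32851 windows 28.2% held GCGTG and 23.3% held GAGGAA, and here too a match describes letters, not a site. The Itga5 window held GAGGAA at 127 bases before the start, on the minus strand. Itgav held GAGGAA on either strand at 218 and 7 bases before its start and Itgb1 at 9, while the windows of Itga4 and Itgb7 held neither motif.

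Because subunits act in pairs, the ratio of 2 transcripts within a library was compared between the genotypes for 9 pairs, which removes the scaling of the library. An exact two-sided permutation test over 3 against 3 libraries cannot go below 0.1, and no pair had a p adjusted over the 9 pairs below 0.386. Itgav relative to Itgb5 had log2 CPM ratios of -0.28, -0.28 and -0.36 in WT and 0.16, 0.13 and 0.07 in Ahrr-deficient replicates 1, 2 and 3. The groups did not overlap, and the ratio was 1.35-fold higher in Ahrr-deficient cells (difference 0.43, exact permutation p of 0.1, in 3 of 3 libraries above every WT library).

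Itgav relative to Itgb1 had log2 ratios of -2.74, -2.75 and -2.79 in WT and -2.95, -3.26 and -3.12 in Ahrr-deficient replicates 1, 2 and 3. It was lower in every Ahrr-deficient library, by -0.35 on the log2 scale (exact permutation p of 0.1). The other 7 pairs overlapped between the genotypes. Their differences, Ahrr-deficient minus WT on the log2 scale, were 0.19 for Itgal to Itgb2, -0.39 for Itgam to Itgb2, -0.58 for Itgam to Itgal, -0.36 for Itga4 to Itgb1, -0.60 for Itga4 to Itgb7, 0.34 for Itga5 to Itgb1 and 0.34 for Itga6 to Itgb1. Several of these moved by over 1.5 times with 1 library left out. Without Ahrr-deficient replicate 2 the difference was -0.13 for Itgam to Itgb2, -0.27 for Itgam to Itgal and 0.21 for Itga5 to Itgb1. Without Ahrr-deficient replicate 3 it was -0.24 for Itga4 to Itgb7, and without WT replicate 3 it was -0.17 for Itgam to Itgb2 and 0.32 for Itgal to Itgb2. Ranges over the 6 libraries left out in turn were -0.54 to -0.13 for Itgam to Itgb2, -0.81 to -0.27 for Itgam to Itgal, -0.92 to -0.24 for Itga4 to Itgb7, -0.52 to -0.23 for Itga4 to Itgb1, 0.21 to 0.55 for Itga5 to Itgb1, 0.24 to 0.44 for Itga6 to Itgb1 and 0.12 to 0.32 for Itgal to Itgb2.

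Described per length, Itga1, Itga4, Itga5, Itga6 and Itgav summed to 0.25 ± 0.01 of the Itgb1 level in WT and 0.242 ± 0.003 in Ahrr-deficient cells (SD, n = 3). Itga10 was not in the sum, and Itga4 and Itgav were counted in full though they also pair with other beta chains. Within that sum, Itga4 held the largest share in every WT library (38.2% to 46.8%), with Itga5 at 29.4% to 34.8%. Itga5 held the largest share in Ahrr-deficient replicates 2 (50.2%) and 3 (46.99%), with Itga4 at 28.8% and 30.9%. Ahrr-deficient replicate 1 kept the order of the WT libraries, with Itga4 at 43.0% and Itga5 at 31.4%. The alpha partners of Itgb2 summed to 0.0703 ± 0.0075 of its level in WT and 0.104 ± 0.009 in Ahrr-deficient cells (SD, n = 3), without overlap. With all Itgam counts divided by its unshared bases alone they summed to 0.113 ± 0.020 and 0.137 ± 0.0002 (SD, n = 3). There the groups were barely apart, with WT replicate 3 at 0.1355 and Ahrr-deficient replicate 1 at 0.1365. Transcript ratios do not measure protein at the surface.

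Of 17 other integrin subunit genes, 9 were in the table and 4 could be tested. Besides Itgax, Itga1, the collagen-binding alpha1 chain, rose from 4.90 ± 0.53 to 11.9 ± 2.5 CPM (SD, n = 3), which is 1.13 on the log2 scale (SE 0.21, edgeR adjusted p of 0.00827). Itga2b, the alpha chain of platelets, fell from 2.84 ± 0.16 to 1.52 ± 0.39 CPM (SD, n = 3), which is -1.10 on the log2 scale (edgeR adjusted p of 0.0147). The call of Itga2b was lost in 4 of the 6 fits without 1 library: those without WT replicates 1 (0.0997) and 2 (0.0512) and Ahrr-deficient replicates 2 (0.0917) and 3 (0.0592). It was also lost with DESeq2 (adjusted p of 0.0506), the replicate block (0.063), thinning (0.156) and GC offsets with the block (0.109), and kept in 7 of 15 alternatives. For Itga10 the fold change was -0.71 on the log2 scale (edgeR adjusted p of 0.0823), and 1739 of its 5186 exon bases are shared with Gm42957. Itgb3, the beta chain that pairs with alphaV in osteoclasts and platelets, averaged 0.443 CPM in WT and 1.05 CPM in Ahrr-deficient cells and was not tested. Its counts were few, 6, 4 and 3 in WT and 6, 48 and 3 in Ahrr-deficient libraries 1, 2 and 3, and the groups overlapped in CPM.

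The other genes of integrin function were taken from lists: of 109 tested, 32 (29.4%) were called, 18 higher and 14 lower, beside 19.6% of all tested genes (9.62% higher and 9.95% lower), against which the counts of each list below also stand. Their median log2 fold change was -0.01. The other subunits are included. With 1 library left out, between 19 (without WT replicate 1) and 47 (without Ahrr-deficient replicate 1) were called, with 21 without WT replicate 2 and 20 without Ahrr-deficient replicate 2. Over all tested genes the same fits, in that order, called 694 of 11427, 3857 of 11837, 965 of 11839 and 948 of 11412. Of 18 tested genes of integrin activation, 2 rose and none fell, and talin 1 (Tln1) and kindlin-3 (Fermt3), the main activators in white blood cells, did not pass. Tln2, the second talin, rose from 75.7 ± 8.9 to 136 ± 19.0 CPM (SD, n = 3), which is 0.78 on the log2 scale (edgeR adjusted p of 0.00297). Ptpn12, a phosphatase of adhesion proteins, rose from 259 ± 18.0 to 494 ± 49.6 CPM (SD, n = 3), which is 0.86 on the log2 scale (edgeR adjusted p of 0.00205).

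In the adhesion complex, which ties the integrin tail to actin, 3 of 22 tested genes rose and 2 fell. The 2 PINCH adaptors went opposite ways: Lims1 rose by 0.55 (edgeR adjusted p of 0.00533) and Lims2 fell by 1.28 (edgeR adjusted p of 0.00464) on the log2 scale. Tes, of the zyxin complex, rose by 0.86 (edgeR adjusted p of 0.0227), a call lost without WT replicates 1 (0.106) and 3 (0.0728) and Ahrr-deficient replicates 2 (0.0932) and 3 (0.0852), after thinning (0.1001) and with GC offsets and the block (0.0768). Trip6, another LIM protein, fell by 0.65 (edgeR adjusted p of 0.0341), a call lost without each of WT replicates 1 (0.183), 2 (0.097) and 3 (0.0553) and Ahrr-deficient replicates 2 (0.158) and 3 (0.0714). Trip6 also lost its call with no filter (edgeR adjusted p of 0.0533), DESeq2 (0.0977), the replicate block (0.111), thinning (0.145), GC offsets (0.0729) and these with the block (0.203), and kept it in 5 of 16 alternatives.

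Among kinases and adaptors of integrin signalling, 3 of 22 tested genes rose and 4 fell. Syk, the kinase downstream of beta2 integrins and Fc receptors, had 1059.6, 1020.1 and 1117 CPM in WT and 744, 478 and 581 CPM in Ahrr-deficient libraries 1, 2 and 3. It fell by 0.90 (SE 0.17, edgeR adjusted p of 0.00818) on the log2 scale. The 2 focal adhesion kinases went opposite ways: Ptk2b, the form found in myeloid cells (Pyk2), fell from 249.8 ± 9.4 to 161 ± 22.8 CPM (edgeR adjusted p of 0.00533). Ptk2 (FAK) rose from 1.61 ± 0.57 to 3.31 ± 1.44 CPM (edgeR adjusted p of 0.0492), and its call was kept in 3 of 15 alternatives. Without WT replicates 1, 2 and 3 the adjusted p of Ptk2 was 0.142, 0.132 and 0.106, and without Ahrr-deficient replicates 2 and 3 it was 0.357 and 0.0667. Src rose from 2.37 ± 0.87 to 7.15 ± 2.98 CPM (edgeR adjusted p of 0.0132), a call lost without Ahrr-deficient replicate 2 (0.0735) and after thinning (0.0689).

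Among integrin ligands and matrix genes, 3 of 17 tested rose and 4 fell. Spp1, which encodes osteopontin, a ligand of alphaV and alpha4 integrins, had 111, 106 and 69.1 CPM in WT and 185, 683 and 297 CPM in Ahrr-deficient libraries 1, 2 and 3. It rose by 1.94 (SE 0.42, edgeR adjusted p of 0.0151) on the log2 scale, with a wide spread, and by 1.26 without Ahrr-deficient replicate 2 (edgeR adjusted p of 0.0212). The call was lost without WT replicate 1 (0.054) or WT replicate 3 (0.055). Tgfbi, a matrix protein bound by integrins, rose by 2.50 (edgeR adjusted p of 0.00711), and Nid1, a basement membrane linker, by 0.69 (edgeR adjusted p of 0.00593). Thbs1, thrombospondin 1, fell from 120.3 ± 25.7 to 48.7 ± 17.3 CPM (SD, n = 3), which is -1.44 on the log2 scale (edgeR adjusted p of 0.00637).

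Among membrane partners and trafficking genes, 5 of 26 tested rose and 3 fell. Dab2, an endocytic adaptor of beta1 integrins, rose from 326 ± 33.7 to 839 ± 234 CPM (SD, n = 3), which is 1.29 on the log2 scale (edgeR adjusted p of 0.00369). Plau, the urokinase protease, rose by 2.10 (edgeR adjusted p of 0.00634) on the log2 scale. Acap1, which serves recycling of beta1 integrins, rose by 1.54 (edgeR adjusted p of 0.0183), a call lost without WT replicates 1 (0.107) and 2 (0.0575) and Ahrr-deficient replicate 3 (0.0682) and after thinning (0.0575). Adam8, a metalloprotease, fell by 1.41 (edgeR adjusted p of 0.0092), a call lost without WT replicate 1 (0.0503).

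**Figure D4:**
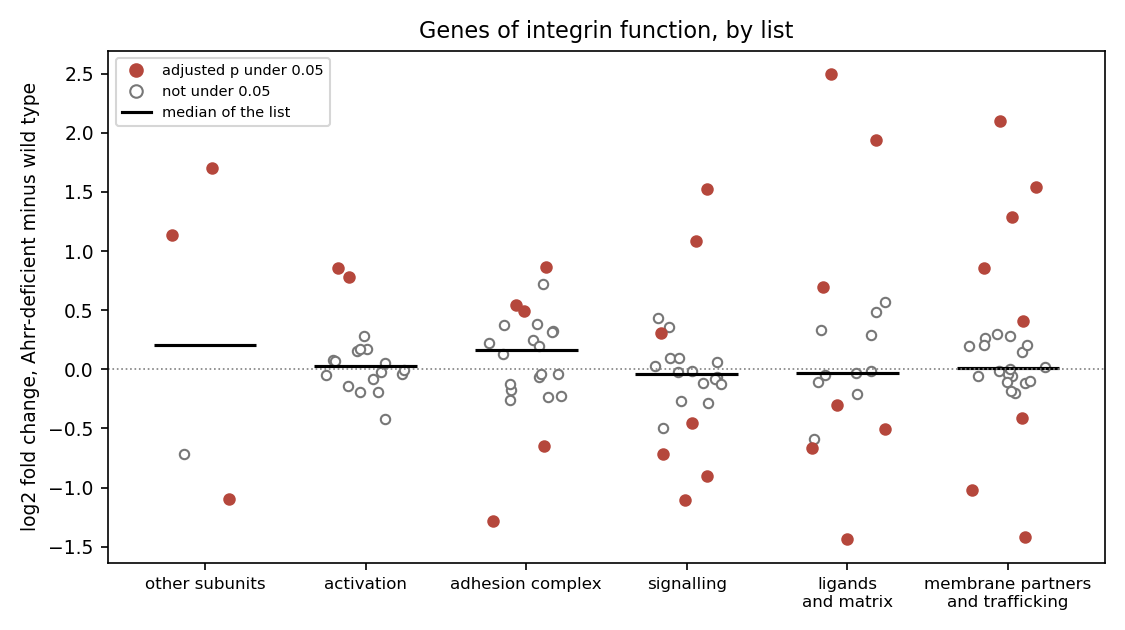
Log2 fold change, Ahrr-deficient minus wild type, of each tested gene in the 6 lists of integrin function. Points are genes, filled where the edgeR adjusted p was under 0.05, and black lines are list medians. Calls lie on both sides of 0 in 5 lists, and both calls in the activation list lie above it.

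Markers of other cell types were measured beside these genes, and their part in the integrin results was not tested. None of the 8 listed granulocyte genes Elane, Mpo, Ctsg, Ngp, Camp, Ly6g, S100a9 and Retnlg was in the table, and the 4 listed genes that were summed to 2.32 to 3.33 CPM in WT and 2.12 to 3.09 CPM in Ahrr-deficient libraries. Of 11 mast cell and basophil genes 1 was in the table, at 0 CPM in all WT libraries and at most 0.281 CPM in the others. Of 8 megakaryocyte and platelet genes 3 were in the table, Itga2b among them, and Pf4, Ppbp, Gp1bb and Gp9 were among those that were not. Their sum, 168 to 215 CPM in WT and 224 to 323 CPM in Ahrr-deficient libraries, was mostly Vwf, which was higher (edgeR adjusted p of 0.0264) while Itga2b was lower. Of 8 dendritic cell genes 4 were in the table, with a sum of 100.2 to 106 CPM in WT and 116 to 134 CPM in Ahrr-deficient libraries. Only 1 of them, Clec9a, was higher, with means of 54.5 CPM in WT and 81.2 CPM in Ahrr-deficient libraries. The others had lower means in Ahrr-deficient libraries: Zbtb46 (5.48 and 4.43 CPM) and Bst2 (42.8 and 41.2 CPM) did not pass, and Xcr1 (0.291 and 0.183 CPM) was not tested. Vwf and Clec9a kept their calls in 10 and 12 of 16 alternatives, and in 1 and 2 of the 6 fits without 1 library. Of 8 erythroid genes 3 were in the table, with a sum of 13.49 to 23.0 CPM in WT and 2.86 to 4.96 CPM in Ahrr-deficient libraries, nearly all of it Epor, which was lower. Lymphoid genes in the table (2 of 9) summed to 34.5 to 75.9 CPM in WT and 17.5 to 38.8 CPM in Ahrr-deficient libraries, nearly all Il7r. Hepatocyte (3 of 8), fibroblast (2 of 8) and endothelial (6 of 8) genes reached at most 5.06, 9.84 and 23.7 CPM in sum in any library. Of these Fabp1 was higher (edgeR adjusted p of 0.0193), in 10 of 15 alternatives and 2 of the 6 fits without 1 library, and Alb, Col1a1, Col1a2 and Emcn were not in the table.

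**Figure D5:**
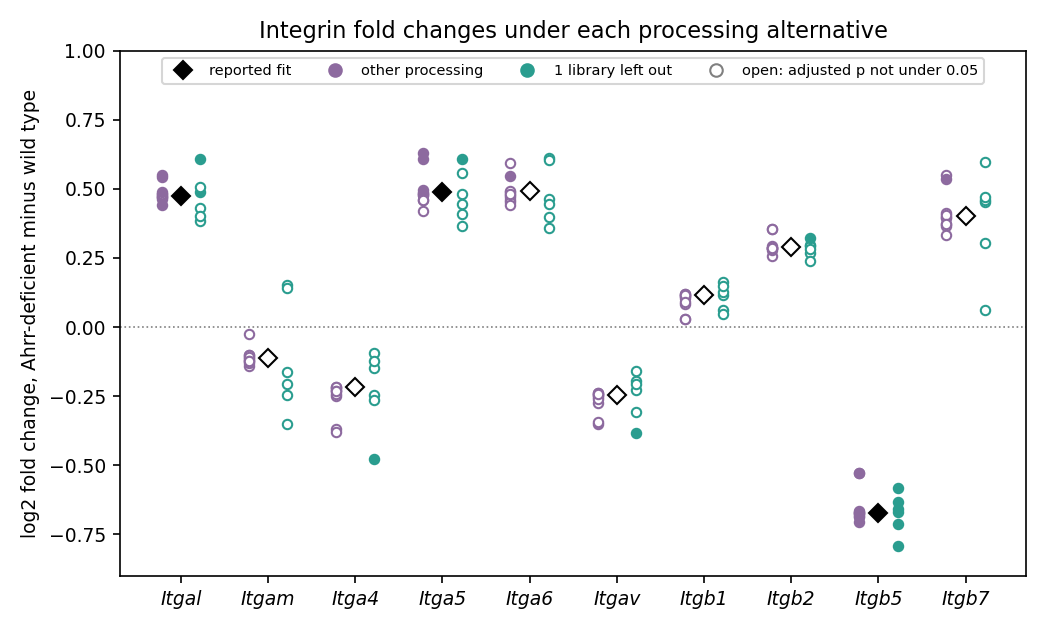
Log2 fold change of each integrin gene in the reported fit (diamonds), under the 10 other processing choices (left points) and in the 6 fits without 1 library (right points). Filled symbols passed an adjusted p of 0.05. All symbols of Itgb5 are filled and below 0, all of Itgal and Itga5 lie above 0 with some open, and Itgam has points on both sides of 0.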

How the data were processed

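RNA was measured in 6 libraries, each from 100 ng of RNA read as single 75 bp reads, per the labels' protocols. Per the submitters' processing notes, CASAVA 1.8.2, fastp 0.20.0, STAR 2.7.10b, SAMtools 1.16.1, R 4.3.1, DESeq2 1.40.2 and the build mm10 were used. The counting program, the annotation and the use of strand are not given in the sources used here. The authors deposited raw counts for 53465 features without identifiers, and a normalized signal for 16111 identified genes. Each deposited signal was a whole multiple of 1 read in its library (100% of values, within 1e-06), and the recovered reads equalled the raw counts of features with at least 10 counts in all. Features without an identifier held at most 0.0511% of a library.

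Counts were tested with edgeR 4.0.16 (quasi-likelihood, TMM, filterByExpr, genotype as the only term) in R 4.3.3, with two-sided p-values adjusted by the Benjamini-Hochberg method over 11408 genes. The biological coefficient of variation was 13.0%. CPM are counts per library total, so TMM-scaled fold changes can differ from CPM ratios. A 95% interval is the fold change with its SE and the t quantile of the fit. Exon lengths, GC and coordinates are from GENCODE mouse release 21 (GRCm38), and 16094 identifiers matched. Ratios used log2 CPM with a prior count of 2. Depth ranged 11.7-fold, and a floor of 3 counts was 0.072 to 0.844 CPM, for counting error only. Replicate pairs differed by 5.79 to 175 in chi-square per degree of freedom, so each library counted once. The test was tried on simulated counts. The 10 genes and all lists were chosen with earlier results of these data known. Up to 4 genes of each list were named, by size of fold change among called genes with a mean of at least 50 counts, with every tested integrin subunit. Itgb3, the cell type markers and genes named without values were chosen after their values were seen. Alternatives were RLE and upper-quartile factors, no filter, a minimum mean of 50 counts, limma-voom (limma 3.58.1), DESeq2 1.42.0, the replicate block, thinning, GC offsets (lowess, span 0.3), these with the block, a prior count of 0.5 for ratios, and each library left out. Tables and plots used Python 3.11.15 and matplotlib 3.10.9.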

Additional observations from a re-analysis of the deposited data

How the results depend on the processing

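Of 746 values recomputed under the alternatives, 634 were counted as unchanged (a tested value with its sign and side of the threshold, a count within 1.5 times, a median within the replicate SD), and 2 turned direction, both of Itgam (0.15 without WT replicate 3 and 0.14 without Ahrr-deficient replicate 2, on the log2 scale, in a range from -0.35 to 0.15 with 1 library left out). The cause of the turn was not tested. All recomputed ratios were counted as unchanged, those that moved in size included. Their exact permutation p cannot go below 0.1, so they could not change their side of the threshold. The 10 integrin genes gave 5 calls with limma-voom, 5 with GC offsets and 1 with the replicate block, against 3, and from 1 to 6 with 1 library left out. Calls over all genes were 1390 with the replicate block, 1243 after thinning and 1229 with GC offsets and the replicate block, against 2232, and from 694 to 3857 with 1 library left out. Genes of the related lists gave 19 to 47 calls with 1 library left out, against 32. The median log2 fold change of the 10 genes was from 0.10 (without Ahrr-deficient replicate 3) to 0.22. Same-numbered libraries come from different mice, and their deviations from the group means correlated at -0.169, 0.0714 and 0.129 for numbers 1, 2 and 3. Differently numbered libraries correlated at -0.214 to 0.163, so the numbers showed no pairing here. With so few libraries these values cannot exclude a batch shared by number. The block changed the calls of Itgal and Itga5 among the 10. No ratio changed sign with 1 library left out or with a prior count of 0.5.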
